A study of Mus musculus with 18 samples.

Results

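Mitochondrial respiration and the citric acid cycle were followed through 50 genes in XCR1+ dendritic cells (DCs) sorted from mouse thymus, as the cells passed from the immature CCR7- to the homeostatically matured CCR7+ stage. The members were taken from a fixed list of symbols: subunits and assembly enzymes of respiratory complexes I to V, citric acid cycle enzymes, the enzymes through which pyruvate enters the cycle, and 4 regulators of mitochondrial content. A symbol was kept when an array probeset named it and no other gene. All 50 symbols met this, out of 19938 genes measured. The symbols were listed with earlier results of these data known, and where a gene had several probesets the one with the highest mean was used.

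The citric acid cycle oxidises acetyl units in the mitochondrial matrix and passes their electrons to NADH and to complex II. Complexes I, III and IV hand these electrons on to oxygen while pumping protons, and complex V, the ATP synthase, uses the proton gradient to make ATP. Immature DCs are known to rely on mitochondrial respiration, and DCs activated by microbial ligands on glycolysis.

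Expression was measured on 18 Affymetrix Mouse Gene ST arrays in 6 groups of 3, from cells of untreated B6 mice. Each group joined 1 of 3 backgrounds with 1 of 2 stages. CTRL mice were wild type and kept specific pathogen free (SPF), Ifnar1-KO mice lacked a chain of the type I interferon receptor and were also SPF, and GF mice were wild type and germ free. All cells were sorted as CD11c+ MHCII+ XCR1+ CD8a+ and negative for CD11b and CD172a. CCR7- cells were also CD117+ and CCR7+ cells CD117-. The labels used here give no ages and do not state if a group's 3 arrays stand for 3 mice, so the p-values reflect array-to-array spread alone. Levels are log2 intensities, and a change is the CCR7+ mean minus the CCR7- mean, given ± SE with n = 3 arrays per group. A gene was called when its limma p-value, adjusted by the Benjamini-Hochberg method over all 19938 genes, was under 0.05.

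The sort genes Ccr7 (a change of 3.0 in CTRL) and Kit, which encodes CD117 (-3.17), changed in the direction of the gates. Other sort genes did not: in CTRL Itgax, which encodes the CD11c gated positive at both stages, fell by 3.13, Xcr1 by 5.11 and Cd8a by 0.73, and Sirpa, which encodes the CD172a gated negative, rose by 0.89. Besides, 8 of 12 XCR1+ DC markers fell and 1 rose in CTRL, while 11 of 12 markers of mature DCs rose and 1 fell. The mean level of the XCR1+ DC markers was 10.25 to 10.33 on the CTRL CCR7- arrays and 7.68 to 7.82 on the CCR7+ arrays. In CCR7- cells Ifnar1 was at 8.07, 7.27 and 7.66 in the knockout and 8.06 to 8.09 in CTRL mice, and in CCR7+ cells at 7.61, 6.07 and 6.96 against 7.61 to 7.82. The sources used here do not place the probeset against the deletion, so these levels do not check the label. Arrays of a group correlated at 0.974 to 0.996, but the second principal component set 6 arrays apart. These were number 2 of Ifnar1-KO (-20.91 and -18.01 in CCR7- and CCR7+ cells) and numbers 2 and 3 of GF (-12.58 to -6.86), with all others above 3. The mean level of 18 thymocyte markers in CTRL mice was 4.44 to 4.80 before and 5.19 to 5.84 after maturation. It reached 7.71 on Ifnar1-KO CCR7+ replicate 2, where 17 of the 18 were at their highest. Markers of B cells, erythroid cells and CD172a+ myeloid cells averaged 4.60 or less on every array, near the background of 4.42 set by olfactory receptor genes. In these lists 6 of 9, 3 of 4 and 6 of 12 genes lay near background, which lowers the means. Single genes stood higher, such as the B cell marker Fcrla (up to 7.70, on Ifnar1-KO CCR7- replicate 2) and Sirpa (up to 6.37, on CTRL CCR7+ replicate 1). Thymic epithelial markers averaged 5.06 to 5.20 on the CCR7- and 5.30 to 5.51 on the CCR7+ arrays, without overlap in any background, and 3 of 10 lay near background. That list includes Ly75, which read 7.83 to 10.60 over the arrays, above every other gene of the list. In CTRL 2 of the 10 genes rose and 1 fell, and the part of Ly75 in the gap was not tested. Plasmacytoid DC markers averaged 5.38 to 6.29, highest on Ifnar1-KO CCR7+ replicate 2.

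In CTRL mice, the listed members of respiration and the citric acid cycle mostly read lower in matured cells. Of the 50 members, 26 fell (52%), 2 rose and 22 did not pass the test. Among all genes 13.6% fell and 12.6% rose, and among the genes above background 22% fell and 17.7% rose. Subunits left off the list fell less often, with 27.8% of 36 other chain subunits and 8.33% of 12 other ATP synthase subunits. The median member change was -0.57, against 0.07 over all genes, and 42 of 50 changes were negative. Their mean level was 8.51 to 8.58 on the CTRL CCR7- arrays and 7.92 to 8.07 on the CCR7+ arrays, without overlap. Bulk arrays cannot tell fewer cells of a type apart from less RNA per cell. Of the 28 calls 19 held whichever of the 6 CTRL arrays was left out, and the 9 that did not are given with their members. The fall was uneven across the pathway: every role held members that fell beside members that did not pass the test, as the plot of CTRL changes by role shows.

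**Figure D1:**
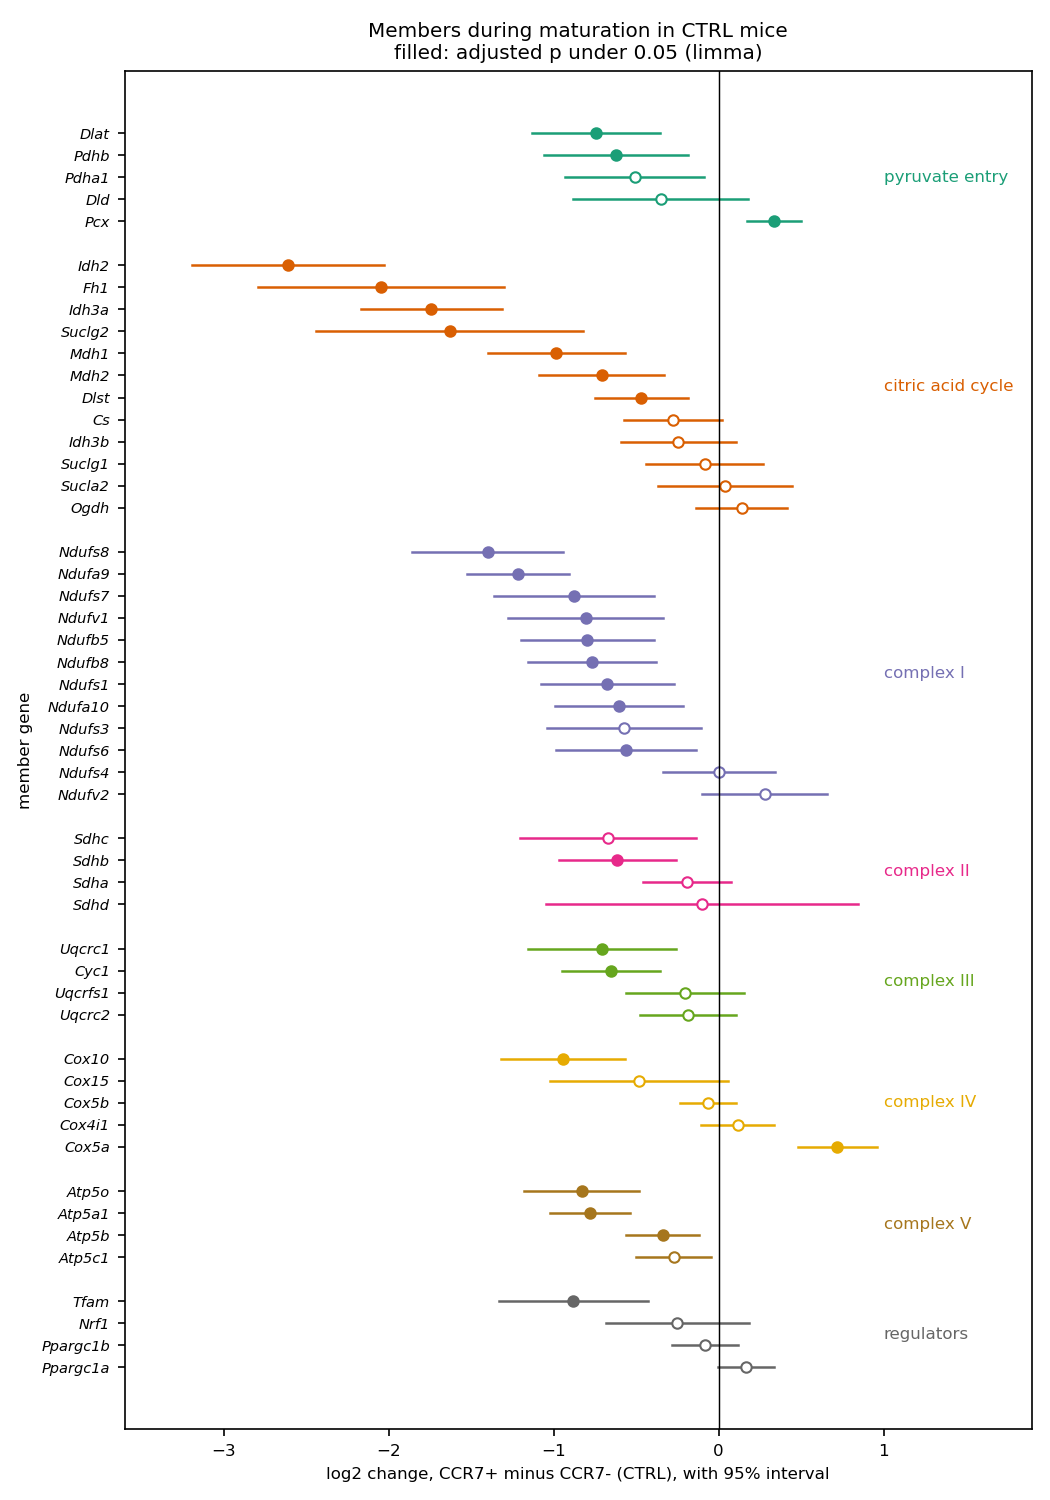
Change from CCR7- to CCR7+ cells in CTRL mice for the 50 members, grouped by role. The horizontal axis is the log2 change, bars are 95% confidence intervals from limma, and filled points passed an adjusted p of 0.05. Idh2 lies lowest (-2.61) and Cox5a highest (0.72).

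The largest falls of all members in CTRL were in the citric acid cycle, where 7 of 12 listed genes fell, none rose and the median was -0.59. Idh2, the mitochondrial isocitrate dehydrogenase that makes NADPH, read 8.88, 8.75 and 8.67 on the CTRL CCR7- arrays and 6.04, 6.31 and 6.13 on the CCR7+ arrays. The lowest CCR7- array thus lay far above the highest CCR7+ array, a change of -2.61 ± 0.27 or 6.10-fold (limma adjusted p = 3.88e-06). Fh1, the fumarase that turns fumarate into malate, read 8.96, 8.66 and 8.97 against 7.20, 6.57 and 6.69. Its groups did not overlap either, and it fell by 2.05 ± 0.35 (4.13-fold, limma adjusted p = 0.000402). Mdh2 and Mdh1, the mitochondrial and the cytosolic malate dehydrogenase, fell by 0.71 ± 0.18 and 0.98 ± 0.19 (limma adjusted p = 0.00756 and 0.00133). Mdh1 read 10.01, 10.07 and 9.97 against 8.98, 9.12 and 9.0, again without overlap. The cytosolic enzyme serves the shuttle that carries NADH electrons into mitochondria.

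Subunits of the same cycle enzyme did not all change alike. Idh3a, the catalytic subunit of the NAD-dependent isocitrate dehydrogenase, read 6.55, 6.16 and 6.21 in CTRL CCR7- cells and 4.66, 4.49 and 4.54 in CCR7+ cells. Its fall by 1.74 ± 0.20 (3.34-fold, limma adjusted p = 9.96e-06) ended close to the background level of 4.42. That level is the 95th percentile of olfactory receptor genes, whose median was 3.43, so some room for a larger fall remained. Near background the size of the fall is uncertain. Idh3b, a partner subunit, differed by -0.24 with an interval of -0.59 to 0.10. Succinyl-CoA ligase, which makes GTP or ATP depending on its beta subunit, showed the same kind of contrast. Suclg2, the GTP-specific beta subunit, read 7.96, 7.65 and 7.65 against 5.89, 6.31 and 6.17, a fall of 1.63 ± 0.38 (3.09-fold, limma adjusted p = 0.00455). A second Suclg2 probeset fell by 1.50 ± 0.29. Sucla2, the ATP-specific beta subunit, read 8.10, 7.86 and 7.89 against 8.19, 7.87 and 7.91, and its interval of -0.37 to 0.45 lay above that of Suclg2 (-2.44 to -0.82). Suclg1, the alpha subunit shared by both forms, differed by -0.08 (-0.44 to 0.27). These within-enzyme pairs were picked after their values were seen, and the difference between subunits was not tested.

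The remaining cycle enzymes moved less. Dlst, the succinyl-transferring subunit of the oxoglutarate dehydrogenase complex and the member nearest the median of this role, read 7.86, 7.93 and 7.92 against 7.48, 7.45 and 7.37. It fell by 0.47 ± 0.13 (limma adjusted p = 0.0153), a call lost without CTRL CCR7+ replicate 3 (adjusted p = 0.0578). Ogdh, the first subunit of that complex, differed by 0.14 (-0.14 to 0.42). Cs, the citrate synthase that starts the cycle, differed by -0.28 (-0.57 to 0.02).

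Of 5 genes at the pyruvate entry, 2 fell, 1 rose and 2 did not pass the test in CTRL. The pyruvate dehydrogenase complex turns pyruvate into acetyl-CoA. Its acetyltransferase Dlat fell by 0.74 ± 0.18 and its E1 beta subunit Pdhb by 0.62 ± 0.20 (limma adjusted p = 0.00678 and 0.0349). The call of Pdhb was lost whichever of the 6 CTRL arrays was left out (adjusted p = 0.0703 to 0.0867), with changes of at least 0.60 in size. The E1 alpha subunit Pdha1, the median of this role, read 7.03, 7.06 and 6.89 against 6.55, 6.51 and 6.39. These groups did not overlap, but the change of -0.51 ± 0.20 missed the threshold (limma adjusted p = 0.0713). Dld, the dehydrogenase subunit shared with the oxoglutarate complex, differed by -0.35 (-0.88 to 0.18). Pcx, the pyruvate carboxylase that refills oxaloacetate, rose by 0.34 ± 0.08 (limma adjusted p = 0.00381). Its CTRL arrays read 3.67, 3.85 and 3.87 against 4.09, 4.05 and 4.26, all below the background level, so this rise says little about its transcript.

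Of the 12 listed subunits of complex I, the NADH dehydrogenase, 9 fell in CTRL, none rose and the median was -0.72. The fall took in 4 of the 6 listed core subunits, which carry the electron path, and 5 of the 6 listed accessory subunits. Ndufs8, a core subunit that holds iron-sulphur clusters, read 9.07, 9.08 and 8.96 against 7.83, 7.44 and 7.64. It fell by 1.40 ± 0.21 (2.64-fold, limma adjusted p = 0.000155), with more than 1 log2 unit between the groups' nearest arrays. Ndufa9, an accessory subunit, read 9.52, 9.64 and 9.57 against 8.66, 8.14 and 8.29, a fall of 1.22 ± 0.14 (2.32-fold, limma adjusted p = 1.44e-05). Ndufs7, the core subunit next to the quinone site, read 8.07, 7.67 and 7.81 against 7.0, 7.0 and 6.92.

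Ndufs7 fell by 0.88 ± 0.23 (limma adjusted p = 0.00976). Ndufv1, the core subunit that takes electrons from NADH, and the accessory subunits Ndufb5 and Ndufb8 fell by 0.80 ± 0.22, 0.80 ± 0.19 and 0.77 ± 0.18. Ndufs1, the largest core subunit and the member nearest the median of the complex, read 7.08, 7.46 and 7.43 against 6.84, 6.65 and 6.45. It fell by 0.67 ± 0.19 (limma adjusted p = 0.015). That call was lost in 3 of 6 fits that left out 1 CTRL array: without CCR7- replicate 2 (adjusted p = 0.0624), CCR7- replicate 3 (0.055) or CCR7+ replicate 3 (0.0721). Ndufa10 and Ndufs6 fell by 0.60 ± 0.18 and 0.56 ± 0.20. The calls of 3 more subunits rested on single CTRL arrays. That of Ndufv1 was lost without CCR7- replicate 1 or 2 or CCR7+ replicate 1 (adjusted p = 0.0518 to 0.0658). That of Ndufa10 was lost without CCR7- replicate 1 or 3 or CCR7+ replicate 2 (0.0681 to 0.0871), and that of Ndufs6 in all such fits except the one without CCR7+ replicate 1 (0.0757 to 0.195). The core subunit Ndufs3 differed by -0.57 ± 0.22 and missed the threshold (limma adjusted p = 0.0685). The accessory subunit Ndufs4 differed by 0.00 (-0.34 to 0.34) and the core subunit Ndufv2, partner of Ndufv1, by 0.28 (-0.10 to 0.66).

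Complex II, succinate dehydrogenase, belongs to both the cycle and the chain, and 1 of its 4 subunits fell. Sdhb, the iron-sulphur subunit, fell by 0.61 ± 0.17 (limma adjusted p = 0.0131, and 0.056 without CCR7+ replicate 3), and the membrane anchor Sdhc differed by -0.67 ± 0.25 (limma adjusted p = 0.0627). Sdha, the flavin subunit, read 9.19, 8.91 and 8.92 against 8.94, 8.62 and 8.87, so the CTRL groups overlapped, and the interval was -0.46 to 0.08. The other anchor, Sdhd, varied most between arrays, with 7.71, 7.59 and 7.62 in CTRL CCR7- cells but 7.15, 8.91 and 7.58 in Ifnar1-KO CCR7- cells. Its CTRL interval of -1.05 to 0.85 leaves the direction of its change undecided.

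Of 4 complex III members, which pass electrons from ubiquinol to cytochrome c, 2 fell. Cyc1, the cytochrome c1 subunit, read 9.34, 9.19 and 9.34 against 8.82, 8.61 and 8.49 and fell by 0.65 ± 0.14 (limma adjusted p = 0.0025). Uqcrc1, a core structural subunit, fell by 0.71 ± 0.21 (limma adjusted p = 0.0207), a call lost without CCR7- replicate 1 (0.0818) or CCR7+ replicate 3 (0.105). Uqcrc2, its partner, and Uqcrfs1, the Rieske iron-sulphur protein, differed by -0.19 (-0.48 to 0.10) and -0.20 (-0.56 to 0.15). Uqcrfs1 read 9.03, 8.93 and 9.18 against 9.15, 8.70 and 8.67, which overlap.

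Complex IV, cytochrome c oxidase, was the 1 complex with a member that rose in CTRL, and its median was -0.06. Cox5a, a structural subunit, read 10.63, 10.69 and 10.63 on the CTRL CCR7- arrays and 11.39, 11.42 and 11.30 on the CCR7+ arrays. It rose by 0.72 ± 0.11 (1.65-fold, limma adjusted p = 0.000183), with no overlap. Cox4i1 and Cox5b, also structural subunits, differed by 0.12 (-0.10 to 0.34) and -0.06 (-0.23 to 0.11), so changes of the size of Cox5a lay outside their intervals. Cox10, an enzyme that makes the heme A of this complex, read 7.12, 7.18 and 6.76 against 6.02, 5.93 and 6.29 and fell by 0.94 ± 0.18 (1.92-fold, limma adjusted p = 0.000867). Cox15, which acts after Cox10 in heme A synthesis, differed by -0.48 (-1.02 to 0.06).

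Of the 4 listed ATP synthase subunits 3 fell in CTRL. Atp5a1, the catalytic-head alpha subunit, read 10.44, 10.35 and 10.29 against 9.44, 9.54 and 9.77, a fall of 0.78 ± 0.11 (1.71-fold, limma adjusted p = 9.92e-05). Atp5o, in the stalk that holds the head, fell by 0.83 ± 0.16 (limma adjusted p = 0.00135). Atp5b, the catalytic beta subunit, fell by 0.34 ± 0.10 (limma adjusted p = 0.025), and Atp5c1, the rotating gamma subunit, differed by -0.27 ± 0.11 (limma adjusted p = 0.0738). The call of Atp5b was lost without any 1 of the CCR7- arrays (adjusted p = 0.0563 to 0.0735) or without CCR7+ replicate 3 (0.125). The interval of Atp5b (-0.56 to -0.12) overlaps that of Atp5a1 (-1.02 to -0.54).

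Among the 4 regulators, Tfam, which packages and transcribes mitochondrial DNA, fell in CTRL. It read 5.77, 6.10 and 5.97 against 5.29, 5.34 and 4.57, a change of -0.88 ± 0.21 (limma adjusted p = 0.00608) that was -0.63 without CCR7+ replicate 3. Nrf1, a transcription factor for nuclear genes of respiration, read 6.12, 6.16 and 6.09 against 5.73, 5.93 and 5.95, without overlap, but its change of -0.25 (-0.68 to 0.18) did not pass. The coactivator Ppargc1a read 3.27 to 3.65 over all 18 arrays and was not above background on any of them. Its relative Ppargc1b read 4.25 to 4.76, around the background level, and differed by -0.08 (-0.28 to 0.12).

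The same comparison was made in mice without type I interferon signalling and in germ-free mice. In Ifnar1-KO mice 13 of 50 members fell (26%) and 1 rose, beside 10.8% and 9.42% of all genes. In GF mice 20 fell (40%) and 1 rose, beside 11.8% and 9.53% of all genes. Among genes above background, 17.5% fell in Ifnar1-KO and 19.3% in GF mice. The median member change was -0.32 in Ifnar1-KO and -0.44 in GF mice. With GF numbers 2 and 3 left out, 13 members were called in GF and the median was -0.66, from 1 array per stage whose spread was taken from the other groups. All 26 members that fell in CTRL had a negative change in both other backgrounds, and 12 of them fell in Ifnar1-KO (46.2% of the CTRL and 92.3% of the Ifnar1-KO members that fell). The overlap with GF was 20 members, 76.9% of those of CTRL and 100% of those of GF. Over all genes that fell, the overlap with Ifnar1-KO was 72.6% of those of CTRL and 90.9% of those of Ifnar1-KO, and that with GF was 76.4% and 87.7%.

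In all 3 backgrounds 11 members fell, 22% of the members beside 8.71% of all genes. These were Idh2, Fh1, Idh3a, Suclg2 and Mdh2 of the cycle, Ndufs8, Ndufa9, Ndufs7 and Ndufb8 of complex I, Cyc1 and Atp5o. Of these, Ndufs7, Ndufb8, Suclg2 and Mdh2 lost their call in some fits without 1 array, as did Mdh1 and Nrf1 in Ifnar1-KO and Ndufa10 in GF. In Ifnar1-KO Ndufs7 lost it without CCR7- replicate 2 (adjusted p = 0.0602) or CCR7+ replicate 1 (0.0659), and Ndufb8 without either of these or CCR7+ replicate 3 (0.0539 to 0.0565). Mdh1 lost it in all such fits except the one without CCR7+ replicate 2 (0.0639 to 0.199), and Mdh2 without CCR7+ replicate 1 (0.0521). In GF Mdh2 lost it without CCR7- replicate 1 or CCR7+ replicate 1 or 3 (0.0664 to 0.08), and Ndufa10 without replicate 1 or 3 of either stage (0.0729 to 0.117). Cox5a was the 1 member that rose in all 3, as 6.74% of all genes did. For 8 members, namely Idh2, Fh1, Idh3a, Ndufs8, Ndufa9, Cyc1, Atp5a1 and Atp5o, all 9 CCR7+ arrays lay below all 9 CCR7- arrays, which held for 8.28% of all genes. Cox5a alone among the members lay the other way round, as did 7% of all genes, and the arrays of the other 41 members overlapped. These shares of all genes include genes near background and were not taken among genes above background alone. In CTRL the share that fell was 22% among genes above background and 13.6% among all genes.

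**Figure D2:**
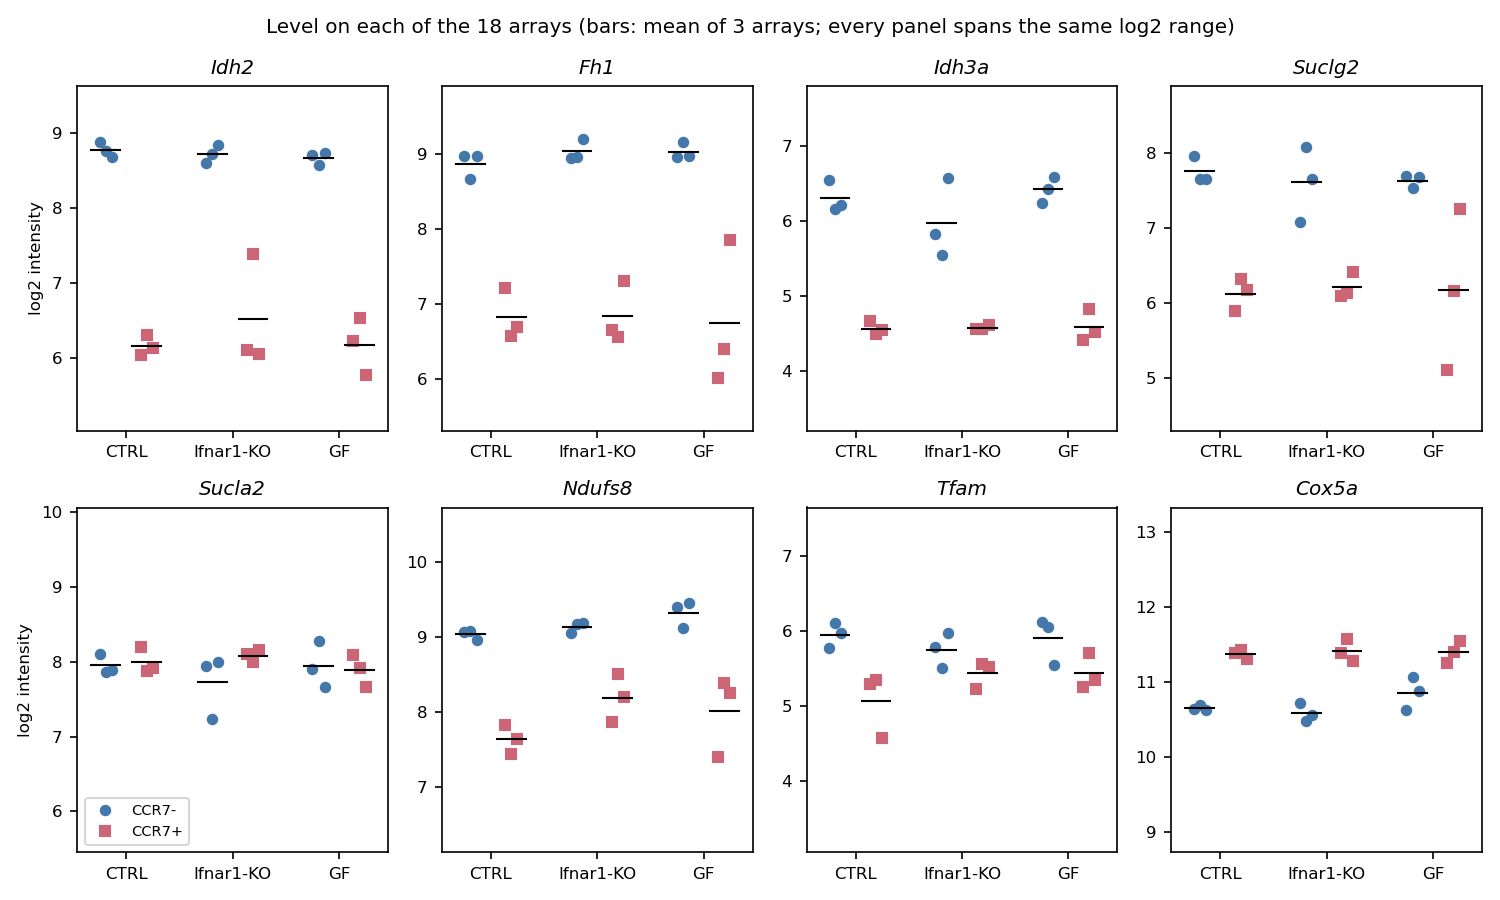
Level of 8 members on each of the 18 arrays. The vertical axes are log2 intensity, each point is an array, short lines are means of 3 arrays, and the horizontal axis gives the background, with circles for CCR7- and squares for CCR7+. Idh2 and Fh1 are low on all CCR7+ arrays and Cox5a is high on them, while the stages of Sucla2 overlap.

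Idh2 read 8.59, 8.72 and 8.84 against 6.10, 7.38 and 6.05 in Ifnar1-KO and 8.70, 8.56 and 8.72 against 6.22, 6.53 and 5.76 in GF cells. It fell by 2.21 ± 0.27 and by 2.49 ± 0.27 (limma adjusted p = 2.34e-05 and 6.98e-06). The highest CCR7+ array of Idh2 was Ifnar1-KO replicate 2, and without that array the Ifnar1-KO change was -2.64. That array also had the highest thymocyte marker level, but a link to the Idh2 level was not tested. For Fh1 the same array was the lowest Ifnar1-KO CCR7+ array (6.56). Fh1 read 8.94, 8.96 and 9.2 against 6.65, 6.56 and 7.30 in Ifnar1-KO and 8.96, 9.16 and 8.97 against 6.0, 6.39 and 7.84 in GF cells. Its CCR7+ arrays spread more than its CCR7- arrays, with GF replicate 3 the highest of the 9, and the changes were -2.20 ± 0.35 and -2.28 ± 0.35.

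Idh3a fell by 1.40 ± 0.20 in Ifnar1-KO and 1.84 ± 0.20 in GF cells, and its 9 CCR7+ arrays read 4.41 to 4.82, near background in all backgrounds. Suclg2 in GF CCR7+ cells read 5.11, 6.16 and 7.25, the widest spread of its groups, against 7.69, 7.53 and 7.67 in GF CCR7- cells. Its GF change of -1.45 ± 0.38 (limma adjusted p = 0.0112) became -0.92 without CCR7+ replicate 1 (adjusted p = 0.0413). In Ifnar1-KO it read 7.08, 8.08 and 7.66 against 6.10, 6.13 and 6.41, and its call (-1.40 ± 0.38, limma adjusted p = 0.0149) was lost without CCR7- replicate 2 (adjusted p = 0.0673) or CCR7+ replicate 1 (0.0512). Sucla2 differed by 0.36 (-0.05 to 0.76) in Ifnar1-KO and -0.06 (-0.46 to 0.35) in GF mice.

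Of the listed complex I subunits 4 of 12 fell in Ifnar1-KO, with Ndufs8 at -0.95 ± 0.21 and Ndufa9 at -0.94 ± 0.14. In GF mice 8 of 12 fell, with -1.31 ± 0.21 and -0.86 ± 0.14. The number 2 arrays of Ndufs8 were the highest CCR7+ array in both: 7.86, 8.50 and 8.19 in Ifnar1-KO and 7.39, 8.39 and 8.24 in GF cells. Cox5a read 10.72, 10.48 and 10.56 against 11.38, 11.57 and 11.28 in Ifnar1-KO and 10.62, 11.07 and 10.88 against 11.25, 11.39 and 11.54 in GF cells, with no overlap in either. It rose by 0.82 ± 0.11 (1.77-fold) in Ifnar1-KO and 0.54 ± 0.11 (1.45-fold) in GF cells (limma adjusted p = 6.18e-05 and 0.00231). Cox10 fell in GF (-0.97 ± 0.18, limma adjusted p = 0.000749), whereas in Ifnar1-KO its change of -0.39 ± 0.18 missed the threshold (limma adjusted p = 0.155). Uqcrc1 fell by 1.11 ± 0.21 in GF mice and differed by -0.44 ± 0.21 in Ifnar1-KO mice. Nrf1 was the 1 member that fell in Ifnar1-KO but not in CTRL, by 0.74 ± 0.20 (limma adjusted p = 0.0162), with 6.24, 6.90 and 6.20 against 5.99, 5.31 and 5.83. That call rested on the number 2 arrays: the change was -0.51 without CCR7- replicate 2 (adjusted p = 0.0789), -0.54 without CCR7+ replicate 2 (0.083) and -0.31 without both (0.259). Tfam differed by -0.32 ± 0.21 in Ifnar1-KO and -0.47 ± 0.21 in GF cells and passed in neither.

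The sizes of the changes were then compared between backgrounds directly. No member, and 0% of all genes, was called in the test of the difference in maturation between Ifnar1-KO and CTRL or between GF and CTRL with limma, also with the replicate number as a block. Unadjusted p was under 0.05 for 3 members in the Ifnar1-KO difference (Atp5a1, Cox10 and Pcx) and for 0 in the GF difference, beside 4.52% and 3.31% of all genes. The smallest adjusted p was 0.958 for Atp5a1 and 0.999 for Pcx. The difference of Atp5a1, 0.45 (0.11 to 0.79), means a smaller fall in Ifnar1-KO cells, where it read 10.24, 10.03 and 10.29 against 9.84, 9.90 and 9.83.

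Over the members the Ifnar1-KO difference ranged from -0.49 to 0.61 with a median of 0.13, which was 0.04 to 0.19 in fits without 1 array and 0.05 without both number 2 Ifnar1-KO arrays. The GF difference ranged from -0.40 to 0.42 with a median of 0.03, whose sign turned in fits without 1 array (-0.03 to 0.09). The precision was limited: the interval lay within 1 log2 unit of 0 for 38 members in the Ifnar1-KO and 44 in the GF difference, so larger differences cannot be set aside for the rest. The difference in Idh2, for example, was 0.40 (-0.42 to 1.22) for Ifnar1-KO and 0.12 (-0.70 to 0.94) for GF. Both comparisons share the CTRL arrays.

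**Figure D3:**
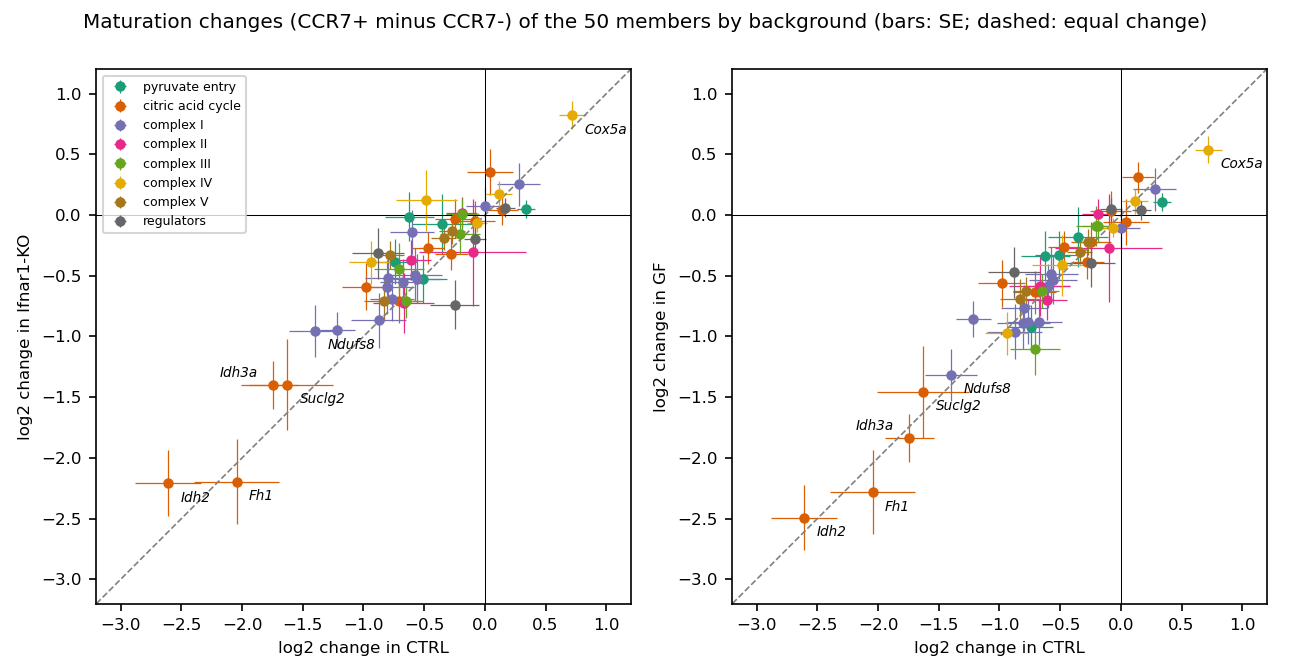
Maturation change of the 50 members in Ifnar1-KO (left) and GF (right) mice against that in CTRL mice, each axis in log2 units. Points are members, the dashed line marks equal changes, and bars are standard errors. Idh2 and Fh1 lie at the lower left in both panels and Cox5a at the upper right, and both panels share the CTRL arrays.

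Within a stage, the members were also compared between backgrounds. In CCR7- cells 0 of 50 members were called between Ifnar1-KO and CTRL and 0 between GF and CTRL with limma, beside 0% and 0.015% of all genes. In CCR7+ cells it was also 0 and 0, beside 0.015% and 0.0301%. Unadjusted p was under 0.05 for 1 and 2 members in CCR7- cells and for 3 and 3 in CCR7+ cells, beside 7.03%, 6.32%, 2.92% and 5.86% of all genes in that order. The strongest was Ndufa9 in CCR7+ cells, higher in GF by 0.50 (0.19 to 0.81) but with a limma adjusted p of 0.539, with 8.53, 9.07 and 9.0 against 8.66, 8.14 and 8.29 in CTRL. The 95% interval lay within 1 log2 unit of 0 for at least 49 of 50 members in each of these 4 comparisons. Member medians were near 0 and moved with the arrays used: in fits without 1 array that of Ifnar1-KO lay between -0.06 and 0.01 in CCR7- and 0.03 and 0.17 in CCR7+ cells, and that of GF between 0.09 and 0.14 and between 0.08 and 0.23.

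Other mitochondrial genes, from lists of related functions, fell in larger shares than all genes in several groups. Beside the counts below, 13.6%, 10.8% and 11.8% of all genes fell in CTRL, Ifnar1-KO and GF mice, and 12.6%, 9.42% and 9.53% rose. Among genes above background 22%, 17.5% and 19.3% fell. In CTRL the falling shares were 53.1% for genome expression and biogenesis, 43.7% for ribosomal proteins and 41.7% for import. Closer to the share of genes above background were other chain subunits and fatty acid oxidation (27.8% each) and assembly factors (25.7%). Among 71 mitochondrial ribosomal proteins, which translate the mitochondrial genome, 31 fell and 4 rose in CTRL with a median of -0.48. The counts were 20 and 5 in Ifnar1-KO and 30 and 4 in GF mice. Mrps28 (-3.14), Mrpl42 (-2.29) and Mrpl22 (-2.22) fell most, and Mrpl14 (1.77), Mrpl13 (1.48) and Mrpl38 (0.56) rose. Of 32 genes of mitochondrial genome expression and biogenesis, 17 fell and 6 rose in CTRL (15 and 5 in both others). Pprc1, a coactivator related to Ppargc1a, fell by 2.17 ± 0.18 (limma adjusted p = 3.93e-07), Pnpt1 by 2.12 and Tfb1m by 1.87. Sirt1, a nuclear deacetylase, rose by 2.24 ± 0.15 (limma adjusted p = 5.23e-08), Mtif3 by 1.82 and Gabpb1 by 0.92.

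Of 24 protein import genes 10 fell and none rose in CTRL, and 11 fell in both other backgrounds. Timm8a1 (-2.12), Timm10 (-1.92) and Timm50 (-1.46) led. Of 36 other electron transport chain subunits 10 fell and 1 rose in CTRL, with a median of -0.24 (7 and 1 in Ifnar1-KO, 11 and 1 in GF). Cycs, the cytochrome c that links complexes III and IV, fell by 1.27 ± 0.14 (limma adjusted p = 6.75e-06), Ndufa5 by 1.33 and Ndufab1 by 1.02, while Uqcrh rose by 0.37. Of 12 other ATP synthase subunits 1 fell in each background, Atp5g3 by 0.65 in CTRL, a share below that of all genes.

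Of 35 assembly factors 9 fell and 4 rose in CTRL (7 and 4 in Ifnar1-KO, 9 and 4 in GF). Ndufaf6 (-2.63 ± 0.20, limma adjusted p = 2.12e-07), Ndufaf4 (-1.54) and Ndufaf5 (-1.21), all factors for complex I, fell most. The complex II factors Sdhaf1 (2.22 ± 0.29, limma adjusted p = 3.89e-05) and Sdhaf2 (1.28) and the copper chaperone Cox17 (0.64) rose most. Of 21 other citric acid cycle and feeding enzymes 7 fell and 2 rose in CTRL (6 and 2, then 4 and 2). Idh1, the cytosolic counterpart of Idh2, rose by 3.01 ± 0.14 in CTRL, 3.63 ± 0.14 in Ifnar1-KO and 3.28 ± 0.14 in GF cells (limma adjusted p = 2.22e-09, 6.47e-10 and 1e-09), while Idh2 fell in all 3. Aco1, the cytosolic aconitase, rose by 0.72, and Acss1 and the mitochondrial malic enzyme Me2 fell by 2.24 and 2.04.

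Fatty acid oxidation, carriers and mitochondrial dynamics showed no one direction. Of 18 fatty acid oxidation genes 5 fell and 3 rose in CTRL (4 and 4 in Ifnar1-KO, 4 and 3 in GF), led by Etfb (-2.06) and Etfdh (1.48), which pass electrons from this pathway to the chain. Of 18 carriers and channels 3 fell and 4 rose (3 and 4, then 4 and 3), and 2 ADP/ATP carriers moved oppositely: Slc25a5 fell by 1.33 and Slc25a4 rose by 0.96. Of 16 fusion, fission and removal genes 3 fell and 3 rose (3 and 2, then 2 and 3). Opa1, needed for inner membrane fusion, fell by 0.65, and the fission genes Dnm1l and Fis1 rose by 1.18 and 0.83. None of the 13 protein-coding genes of mitochondrial DNA was matched to a probeset with a single symbol, so they were not analysed here.

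**Figure D4:**
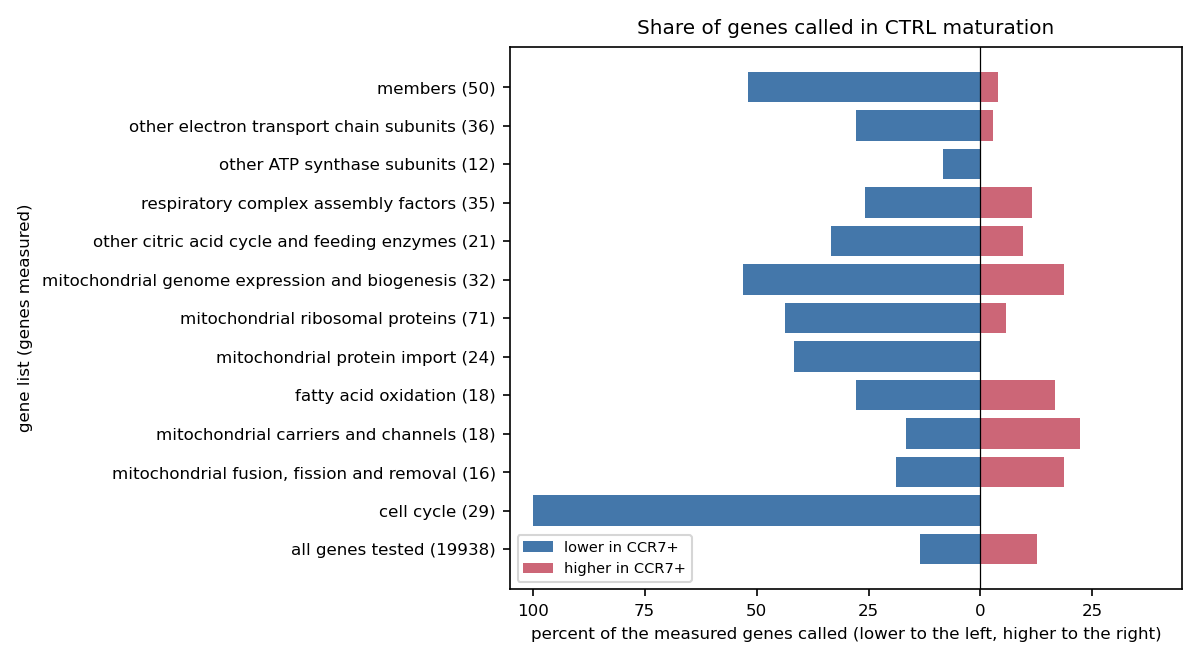
Share of genes in percent that fell (bars to the left) or rose (to the right) with maturation in CTRL mice, at an adjusted p under 0.05 with limma, for the 50 members, the other lists and all genes. The bars to the left reach 52% for the members and 13.6% for all genes.

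Cell cycle genes moved with the members. All 29 of them fell in CTRL (median -2.71) and 27 in each other background, and their mean level was 8.26 to 8.37 on the CTRL CCR7- and 5.31 to 5.66 on the CCR7+ arrays. The thymocyte marker level was also higher on the CCR7+ arrays of each background: 5.28 to 7.71 against 4.55 to 5.24 in Ifnar1-KO and 5.40 to 6.15 against 4.57 to 4.75 in GF mice. Of the 18 markers 5 lay near background, and 2 rose in CTRL and 3 in each other background. The part of either list in the members' changes was not tested. Without both number 2 Ifnar1-KO arrays, 29 members were called in CTRL, 18 in Ifnar1-KO and 24 in GF. The mean level of the members in GF CCR7+ cells was 7.93 on replicate 1 and 8.21 and 8.23 on replicates 2 and 3. Replicates 2 and 3 stood apart on the second principal component, as did the GF CCR7- arrays with the same numbers.

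Sequence around the starts of the members was read for letters recognised by factors known to act on respiration genes. RefSeq promoters (build GRCm38.p6, 250 bases before to 50 after a start) were matched for 42 of 50 members. The motifs, searched on both strands, were GCGCANGCG for NRF1, CCGGAAG for GABP and other ETS factors, TCAAGGTCA for ERRalpha and AAGATGGCG for YY1. The NRF1 letters were present for 9 of 42 members (21.4%) and 7.03% of all genes with a promoter, and the ETS letters for 9 (21.4%) and 9.93%. The YY1 letters were present for 5 (11.9%) and 1.64%, and the ERRalpha letters for 1 (2.38%) and 0.466%. All 5 YY1 matches lay after the start, between bases 22 and 44, and so did the ERRalpha match. The NRF1 matches of Atp5o, Dld and Uqcrc1 and the ETS matches of Cox15, Dlst, Ndufs8 and Sdhb also lay after the start. The NRF1 letters occurred in 3 of 22 matched members that fell in CTRL and 6 of the 20 others, the ETS letters in 5 and 4, and the YY1 letters in 4 and 1. A match describes the letters and is no measure of binding.

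The 150 bases before the start are shown for 4 members, chosen after the matches and changes were known. Fh1 fell strongly and has no match, and the other 3 have NRF1 letters and a CTRL change that did not pass the test. Atp5o, Ndufs6 and Uqcrc1, which have NRF1 letters and fell in CTRL, are not shown. A link between letters and changes was not tested. Each is written 5′ to 3′ on the gene's strand, with motif letters in capitals. Fh1 lies at chr1:175625636-175625785 (minus strand), Sdha at chr13:74350241-74350390 (minus), Sdhd at chr9:50603850-50603999 (minus) and Sucla2 at chr14:73552636-73552785 (plus). The capitals of Sdha are 3 NRF1 matches, those of Sdhd an NRF1 match and then an ETS match read on the opposite strand, and those of Sucla2 an NRF1 match on the opposite strand.
Fh1: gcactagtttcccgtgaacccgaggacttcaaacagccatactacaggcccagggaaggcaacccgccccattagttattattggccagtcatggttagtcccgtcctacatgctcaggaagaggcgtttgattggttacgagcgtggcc
Sdha: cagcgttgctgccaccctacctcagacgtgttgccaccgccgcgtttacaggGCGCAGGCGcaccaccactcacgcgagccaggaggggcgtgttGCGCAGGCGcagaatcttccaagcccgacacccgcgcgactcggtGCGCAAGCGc
Sdhd: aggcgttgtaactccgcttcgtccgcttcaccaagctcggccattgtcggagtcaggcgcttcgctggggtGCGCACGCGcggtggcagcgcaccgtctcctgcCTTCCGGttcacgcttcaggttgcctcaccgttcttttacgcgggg
Sucla2: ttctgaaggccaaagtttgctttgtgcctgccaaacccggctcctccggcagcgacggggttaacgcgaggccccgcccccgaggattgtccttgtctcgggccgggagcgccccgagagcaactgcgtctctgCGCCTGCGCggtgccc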

How the data were processed

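RNA of sorted cells was amplified with a NuGEN Ovation Pico kit from 0.7 to 7.3 ng, per the labels' protocols. The authors deposited 1 table of log2 intensities, made with RMA in the oligo package per the submitters' processing notes. The sources used here state no versions and do not say if RMA was run on all arrays jointly. Some array codes end in an r of unstated meaning, carried by every GF array. The letters in the codes of CTRL number 2 arrays are swapped, and the stated stage was used.

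Of 35556 probesets, 21789 named 1 gene symbol, 1621 several and 12146 none. The probeset with the highest mean stood for each gene (19938 genes), with no filter on level. A model with 1 mean per group was fitted (limma 3.58.1, R 4.3.3, 12 residual degrees of freedom, 14.4 after eBayes) over 18 arrays, with Benjamini-Hochberg adjustment per comparison. The background level was the 95th percentile of 1027 olfactory receptor genes (4.42). An array has no read depth. The number of arrays limits precision: the median half-width of a member's 95% interval was 0.38 for a maturation change and 0.54 for a difference. The functions were tested on simulated data. Figures used matplotlib 3.10.9, pandas 2.3.3 and numpy 2.4.6 in Python 3.11.15.

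Members and lists were chosen with earlier results of these data known. Values per array were given in CTRL for the called members with the largest CTRL changes (up to 10 per direction), the 4 regulators, the member nearest each role's median, and in other comparisons for up to 5 called members per direction, of which Idh3a and Ndufs8 are given in part. Up to 3 called genes per direction were named in each list, and other members by role. Alternatives were array weights, an intensity trend, centring, quantile normalisation, the mean of probesets, genes above background, the groups compared alone, a replicate block, the r mark, and leaving out arrays. Leaving out GF numbers 2 and 3, and the fits without 1 array for all members called, were added after the data were seen. Pairing by replicate number asked for a correlation above 0.1, over all genes, in every pair of CCR7- and CCR7+ arrays. CTRL (0.188, 0.147 and 0.100) and Ifnar1-KO (0.284, 0.321 and 0.236) met it, and GF (0.267, 0.00354 and 0.0296) did not. Over the members alone only Ifnar1-KO stayed above 0.1 (0.359, 0.321 and 0.124). The members gave -0.0527, 0.341 and -0.273 in CTRL and -0.00536, 0.0514 and -0.0572 in GF.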

Additional observations from a re-analysis of the deposited data

How the results depend on the processing

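For maturation in each background, the count of members called and the median member change kept their direction and stayed within 1.5 times their value under every alternative that kept at least 2 arrays per group. Leaving out the GF number 2 and 3 arrays leaves 1 GF array per stage. It gave a GF median of -0.66 against -0.44, a shift larger than the spread between replicate arrays. Members called numbered 21 to 27 in CTRL, 10 to 17 in Ifnar1-KO and 19 to 23 in GF when 1 array was left out. Under the other settings they numbered 26 to 33 in CTRL, 12 to 21 in Ifnar1-KO and up to 24 in GF. No member was called in a comparison between backgrounds under any of them, but the small medians there moved by more than 1.5 times, or turned, in each of the 6 comparisons. With the r mark as covariate the medians of GF minus CTRL were 0.02 in CCR7- and 0.04 in CCR7+ cells, and without the GF number 2 and 3 arrays 0.01 and -0.06. Normalising by quantiles again turned that of Ifnar1-KO minus CTRL in CCR7- cells to 0.01. The highest Ifnar1-KO count (21, against 14) came with array weights. With the replicate block, which pairs the stages by number, 31 members were called in CTRL, 20 in Ifnar1-KO and 24 in GF, 0 in the differences between backgrounds, and no call of a member named by rule changed. Over the alternatives for single members named by rule and Nrf1 in Ifnar1-KO, 542 values kept their status, 13 lost a call, 3 gained a call and 0 reversed. The 542 include members that were called in neither fit. Besides those given with Ndufs1, Dlst, Suclg2 and Nrf1, calls were lost for Dlst with an intensity trend (adjusted p = 0.0558), Suclg2 in Ifnar1-KO without both number 2 arrays (0.133) and Suclg2 in GF and Nrf1 in Ifnar1-KO with the compared groups alone (0.118 and 0.125). Pdha1 in CTRL was gained with array weights (0.0171), with the compared groups alone (0.00291) and without the GF number 2 and 3 arrays (0.0139). Centring arrays moved the median change of all genes in CTRL from 0.07 to 0.02. Signal near background limits Pcx, Ppargc1a, Ppargc1b and the CCR7+ level of Idh3a.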
